A study of Arabidopsis thaliana with 16 samples.

Results

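The JAZ genes described here are 10 members of the jasmonate ZIM-domain family of Arabidopsis, taken by their locus identifiers from a table of 25444 listed genes. They are JAZ1 (AT1G19180), JAZ2 (AT1G74950), JAZ3 (AT3G17860), JAZ5 (AT1G17380), JAZ6 (AT1G72450), JAZ7 (AT2G34600), JAZ8 (AT1G30135), JAZ9 (AT1G70700), JAZ10 (AT5G13220) and JAZ12 (AT5G20900). Their mRNA was measured by RNA sequencing in 8 groups of 2 libraries, 16 libraries in all. Each group was an inflorescence sample that also held juvenile leaves, from Columbia-0 wild type (WT) or from the zed1-D mutant. All plants were raised at 18 °C under 16 h of light and 8 h of dark until the stem bolted, and both genotypes then went to 28 °C and were sampled after 0, 3, 12 and 48 h. The 0 h plants are the controls of the temperature change, and WT at the same hour is the control of the genotype. The labels do not say how many plants entered a library or at what time of day it was taken, so a change over hours can also hold a daily rhythm.

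JAZ proteins are repressors. Without the hormone they hold MYC-type transcription factors silent by recruiting the corepressor TOPLESS, mostly through the adaptor NINJA. Jasmonoyl-isoleucine, the active jasmonate, makes the F-box receptor COI1 bind JAZ proteins, which are then degraded, so that MYC factors switch on defence genes and, in flowers, stamen maturation genes. Many JAZ genes are themselves MYC targets, and their new transcripts refill the repressor pool. ZED1 is a pseudokinase that acts with an immune receptor, and zed1-D is an allele of it. A count cannot check that allele, and no ZED1 difference between genotypes was called at any time (log2 difference 0.49 ± 0.69, SE, at 12 h, adjusted p = 0.834 by edgeR). The SE was near 0.7 at each hour, so a real difference could go uncalled.

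On the RefSeq annotation of TAIR10.1, JAZ1 lies at chr1:6621777-6623668 (+), JAZ2 at chr1:28148574-28150446 (-) and JAZ3 at chr3:6119707-6123044 (+). JAZ5 lies at chr1:5955155-5957511 (-), JAZ6 at chr1:27273968-27276562 (-) and JAZ8 at chr1:10596352-10597341 (+). JAZ7 lies at chr2:14573030-14573952 (+) and JAZ9 at chr1:26654529-26657350 (+). JAZ10 at chr5:4218786-4221077 (+) overlaps a long non-coding RNA gene on the other strand. JAZ12 at chr5:7090704-7092539 (+) overlaps another such gene and the protein-coding gene AT5G20910, both on the other strand. The strand setting of the counting is not given in the sources used here, so reads of those partners cannot be told from JAZ10 and JAZ12 reads.

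MYC factors bind the G-box, and the 300 bases before each annotated start were searched for its letters CACGTG and for the variant CACGTT, on both strands (AACGTG is the variant read on the other strand). G-box letters stood before 4 of the 10 members (JAZ2, JAZ3, JAZ7 and JAZ8), against 7.09% of 27443 protein-coding genes. Variant letters stood before JAZ3, JAZ5, JAZ6 and JAZ12, against 8.71% of genes. At least 1 of the motifs was found for 7 of 10 members and for 15% of all genes, and no matches overlapped. The windows of JAZ1, JAZ9 and JAZ10 held neither. Each match is printed from RefSeq (TAIR10.1) with its flanks in the direction of transcription, to show how members with and without it compare with the levels given below. Capitals mark the matched letters.
JAZ2, chr1:28150482-28150537 (-): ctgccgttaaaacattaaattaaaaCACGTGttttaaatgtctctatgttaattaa
JAZ3, chr3:6119527-6119655 (+): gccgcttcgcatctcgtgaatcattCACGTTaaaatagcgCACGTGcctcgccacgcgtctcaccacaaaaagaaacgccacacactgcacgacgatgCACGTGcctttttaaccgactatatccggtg
JAZ5, chr1:5957699-5957754 (-): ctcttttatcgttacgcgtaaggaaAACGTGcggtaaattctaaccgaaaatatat
JAZ6, chr1:27276659-27276714 (-): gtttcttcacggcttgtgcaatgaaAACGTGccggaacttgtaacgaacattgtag
JAZ7, chr2:14572971-14573026 (+): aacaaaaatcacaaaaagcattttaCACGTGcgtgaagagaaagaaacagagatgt
JAZ8, chr1:10596317-10596351 (+): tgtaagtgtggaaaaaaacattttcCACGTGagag
JAZ12, chr5:7090545-7090678 (+): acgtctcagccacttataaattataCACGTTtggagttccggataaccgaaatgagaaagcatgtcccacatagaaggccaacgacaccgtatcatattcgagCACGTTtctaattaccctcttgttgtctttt

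The matches of JAZ8 (10 bases) and JAZ7 (34 bases) lay nearest to the annotated start, and that of JAZ5 (218 bases) lay farthest. JAZ7 and JAZ8 are close relatives, as are JAZ5 and JAZ6, and within each pair the same motif was found. JAZ1 and JAZ2, also named TIFY10A and TIFY10B, differed, with a G-box before JAZ2 and neither motif before JAZ1. A match is a description of letters and does not show that a factor binds there.

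**Figure D1:**
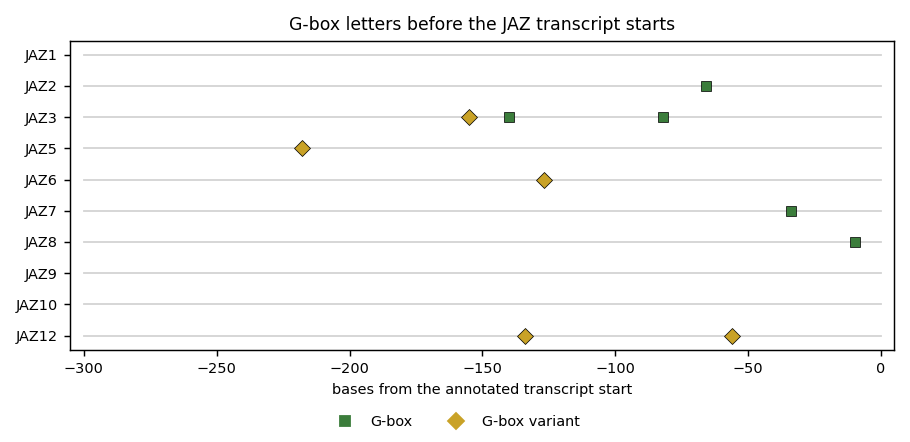
Positions of G-box letters (green squares) and of the variant (yellow diamonds) in the 300 bases before the annotated transcript start of each member. The x axis is the distance in bases. JAZ3 has 3 matches, JAZ12 has 2, and JAZ1, JAZ9 and JAZ10 have none.

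Counts per library summed to between 4.74 M and 5.86 M reads in the 8 libraries numbered 1, and to between 10.4 M and 11.4 M reads in the 8 numbered 2. Levels are given below as CPM, read counts scaled to library size with TMM factors, and as the deposited length-scaled values (RPKM) where genes are compared with each other. Of the 10 members, 8 passed the filter on low counts with or without the zed1-D 12 h libraries. JAZ7 and JAZ8 passed it only through those libraries, where they are highest, and were at 0 in some others, so their values rest on few reads. Tests are from an edgeR quasi-likelihood model over 19312 genes, and adjusted p is Benjamini-Hochberg over all of them, called under 0.05. Where it matters, the share of all tested genes called in the same comparison stands beside a count of members. A second model took the replicate number as a block, since libraries with the same number deviated together.

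The summed level of the 10 members was highest in zed1-D after 12 h at 28 °C. It was 820.5 and 830.2 CPM in those 2 libraries, against 327.4 and 331.3 CPM in WT at that hour. In WT the sum was lowest at 0 h (273.2 and 278.6 CPM) and stood at 458.5 and 465.5 CPM after 3 h and at 419.3 and 442.5 CPM after 48 h. In zed1-D it was 323.4 and 345.7 CPM at 0 h, 409.5 and 435.4 CPM at 3 h, and 408.4 and 412.7 CPM at 48 h. At 3 and 48 h the zed1-D sums were thus below those of WT, and at 0 and 12 h above.

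Per transcript length, JAZ12 led the family in WT at 18 °C with 71.4 and 72.0 RPKM. JAZ6 followed (28.5 and 43.8 RPKM), and its libraries spanned those of JAZ2 (29.3 and 32.1 RPKM) and JAZ9 (28.2 and 31.9 RPKM), so the order of these 3 is not resolved. JAZ3 (17.5 and 20.9 RPKM) and JAZ1 (16.2 and 18.1 RPKM) overlapped below them, as did JAZ10 (3.3 and 5.09 RPKM) and JAZ5 (3.24 and 3.77 RPKM). JAZ7 and JAZ8 stayed under 1 RPKM. In zed1-D at 12 h the order was different, and no neighbours in it overlapped. JAZ9 led with 154.8 and 155.0 RPKM, JAZ6 had 110.2 and 147.6 RPKM, and JAZ1 came next with 102.6 and 103.7 RPKM. JAZ12 came after these with 89.7 and 91.6 RPKM. JAZ2, JAZ5, JAZ10 and JAZ3 followed, and JAZ7 (4.23 and 4.64 RPKM) and JAZ8 (2.86 and 3.50 RPKM) remained last.

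**Figure D2:**
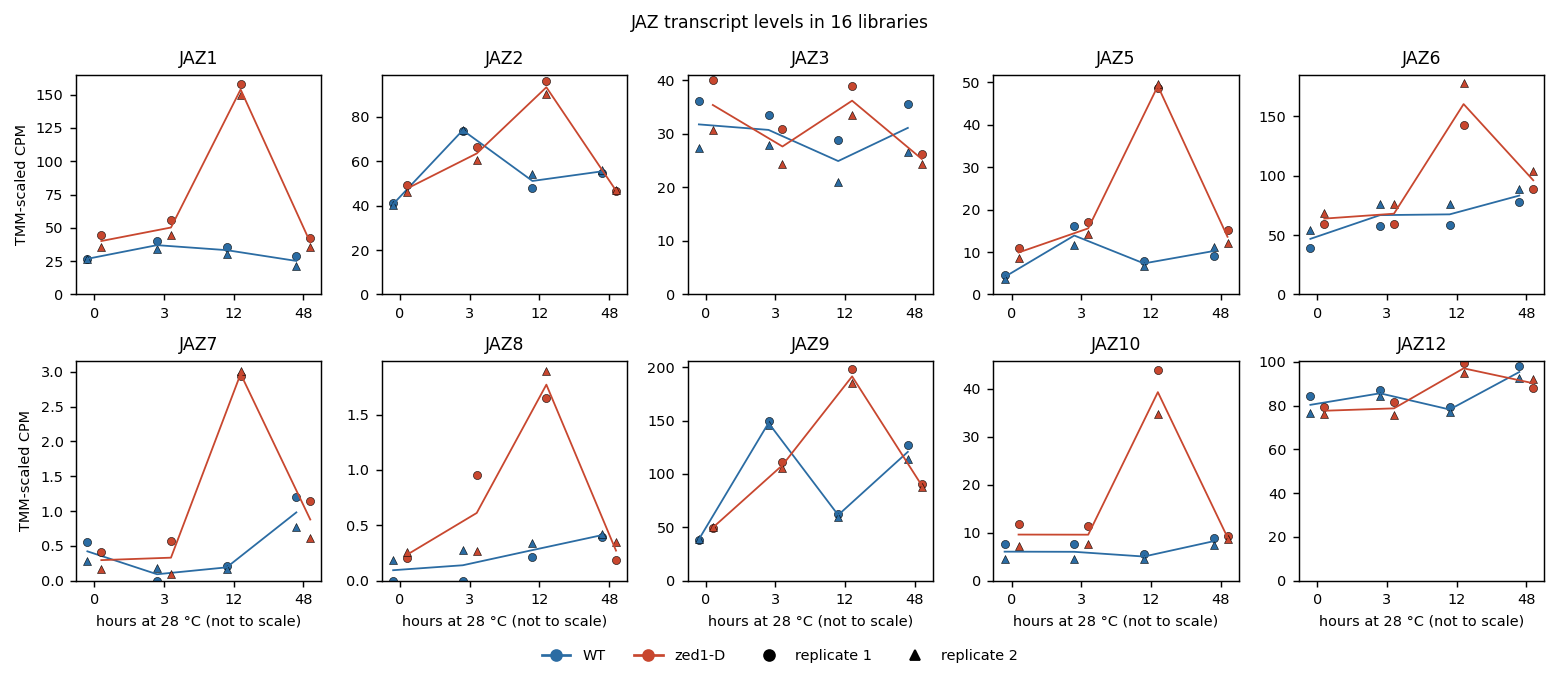
TMM-scaled CPM of each member (y axis, from 0, own scale per gene) in each library by hours at 28 °C (x axis, not to scale), for WT (blue) and zed1-D (red). Circles are replicate 1, triangles replicate 2, and lines join the means. In zed1-D the 12 h points stand above the other hours for JAZ1, JAZ2, JAZ5, JAZ6, JAZ7, JAZ8, JAZ9 and JAZ10, while JAZ9 in WT is high at 3 and 48 h.

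The question of the genotype comparison is how zed1-D plants differ from WT at each hour. After 12 h at 28 °C, 8 of the 10 members were higher in zed1-D and 0 were lower, where 9.69% of all tested genes were called. The median log2 difference of the 10 members was 1.93, beside 0.00 for all tested genes. Library values of the genotypes did not overlap for any of the 10, but also not for 6 at 0 h, 5 at 3 h and 7 at 48 h. The share of all genes without overlap was not computed, so this count is only a description. With the replicate block all 10 were called higher, where 35.1% of all genes were called. Leaving aside JAZ7 and JAZ8, 6 of the other 8 members were higher and 0 lower, with a median of 1.44, and all 8 were higher with the block.

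JAZ1, the repressor first tied to COI1 binding, had 158.3 and 149.6 CPM in zed1-D and 36.0 and 30.5 CPM in WT at 12 h, a log2 difference of 2.21 ± 0.20 (SE, edgeR adjusted p = 3.5e-05). JAZ10, some of whose splice forms escape degradation, had 43.8 and 34.7 CPM against 5.60 and 4.47 CPM (2.98 ± 0.35, adjusted p = 0.000244). JAZ5, a repressor that can recruit TOPLESS directly through an EAR motif, had 48.8 and 49.6 CPM against 7.97 and 6.67 CPM (2.76 ± 0.23, adjusted p = 2.4e-05). For these 3 genes the lower zed1-D library was more than 4 times the higher WT library.

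JAZ6, the EAR-motif relative of JAZ5, had 142.4 and 178.3 CPM in zed1-D at 12 h and 58.4 and 76.5 CPM in WT. The difference was 1.25 ± 0.22 (adjusted p = 0.00416), and it missed the threshold without WT 12 h replicate 1 (adjusted p = 0.0645). JAZ9, which also binds DELLA repressors of gibberellin signalling, had 197.9 and 184.7 CPM against 62.9 and 60.1 CPM (1.64 ± 0.11, adjusted p = 1.0e-05). JAZ2, known for its part in stomatal guard cells, had 96.2 and 90.4 CPM against 47.8 and 54.3 CPM (0.87 ± 0.12, adjusted p = 0.000621). These abundant members were higher by smaller factors, 2.37-fold, 3.11-fold and 1.82-fold, than JAZ1 (4.64-fold), JAZ5 (6.78-fold) and JAZ10 (7.90-fold).

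JAZ7 and JAZ8 are short relatives, and JAZ8 lacks the degron that COI1 reads, so it is stable under jasmonate. Both entered the test only because of their reads in zed1-D at 12 h, so the difference there is given as a description. JAZ7 had 16 and 35 reads in zed1-D at 12 h and 1 and 2 in WT. Scaled for library size, that is a ratio of 16.4 (exact 95% interval 5.3 to 82.1, for counting error only), with edgeR adjusted p = 0.00277, and adjusted p = 0.0787 without WT 12 h replicate 2. JAZ8 had 9 and 22 reads in zed1-D and 1 and 4 in WT, a ratio of 5.98 (2.31 to 19.7). Its call is weak: adjusted p was 0.0296 in edgeR and 0.131 in DESeq2, and it missed the threshold without either WT 12 h library or zed1-D 12 h replicate 1 (up to 0.199). Without zed1-D 12 h replicate 2 it no longer passed the filter.

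The 2 members not called without the block at 12 h were JAZ3 and JAZ12. JAZ3, known from a dominant jasmonate-insensitive allele, had 38.9 and 33.5 CPM in zed1-D and 28.9 and 20.9 CPM in WT (adjusted p = 0.209, with the replicate block 8.25e-05). JAZ12, which the ubiquitin ligase KEG keeps stable, had 99.3 and 94.8 CPM against 79.3 and 77.2 CPM (adjusted p = 0.125, blocked 0.00296). Their log2 differences, 0.55 ± 0.23 and 0.31 ± 0.11, were the lowest of the 10. Of the members with a G-box in the window, JAZ2 was called and JAZ3, which has 2, was not. JAZ7 and JAZ8 also have a G-box. Their calls are left aside here because they entered the test only through the zed1-D 12 h libraries. Of those with the variant alone, JAZ5 and JAZ6 were called and JAZ12 was not. JAZ1, JAZ9 and JAZ10, with neither, were called. A relation between motif and call was not tested.

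**Figure D3:**
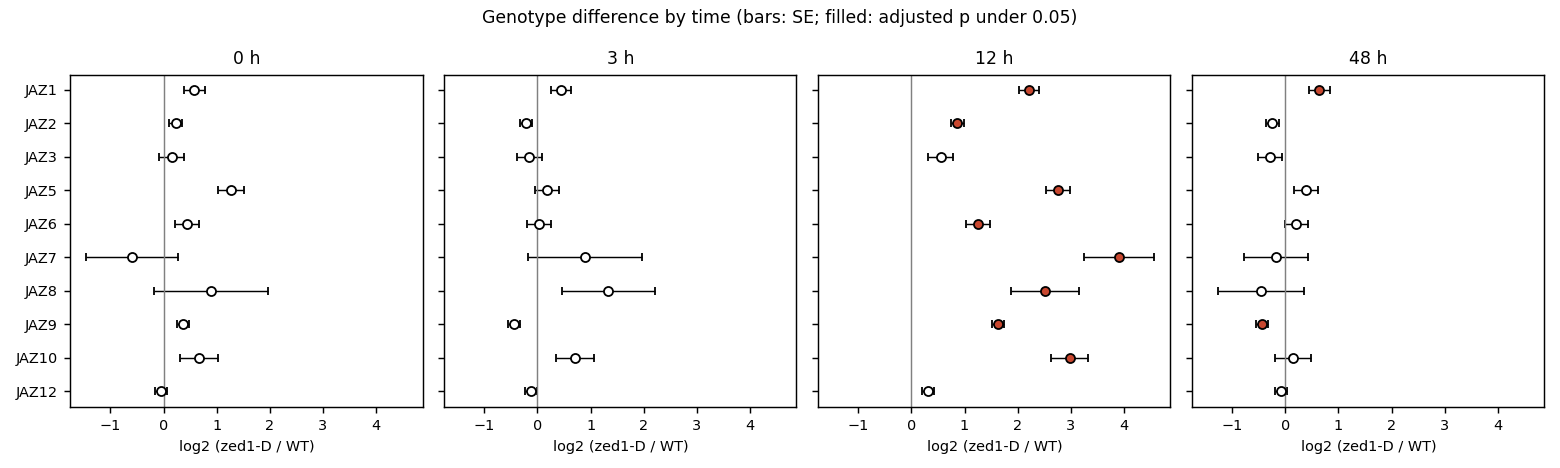
Log2 difference between zed1-D and WT (x axis) for each member at 0, 3, 12 and 48 h. Points are edgeR estimates, bars their SE, and filled points have an adjusted p under 0.05. All 10 points lie above 0 at 12 h, from 0.31 for JAZ12 to 3.92 for JAZ7, and 8 are filled, against 0, 0 and 2 at the other hours.

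At 0 h, before the move, 0 of 10 members passed (0.0466% of all genes did). An unadjusted p under 0.05 was found for 3 members, and DESeq2 called JAZ5 alone, with 1 member left without an adjusted p. With the block JAZ1, JAZ5, JAZ6 and JAZ9 were called higher in zed1-D (4 of 10, where 2.27% of all genes were called). JAZ5 had 11.1 and 8.71 CPM in zed1-D and 4.66 and 3.61 CPM in WT at 18 °C, with adjusted p = 0.236 in edgeR, 0.049 in DESeq2 and 0.000371 with the block. JAZ1 had 44.3 and 36.0 CPM against 26.7 and 26.9 CPM (edgeR adjusted p = 0.00261 with the block). The groups did not overlap for either gene.

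At 3 h, 0 of 10 members passed (3.06% of all genes), 2 had an unadjusted p under 0.05, and DESeq2 called JAZ9 alone. JAZ9 had 111.0 and 105.4 CPM in zed1-D and 149.8 and 145.6 CPM in WT (adjusted p = 0.0617 in edgeR, 0.0174 in DESeq2, 3.94e-05 with the block). With the block JAZ9 was called lower, and JAZ1 and JAZ10 higher, where 17.1% of all genes were called. JAZ1 then had 55.9 and 44.7 CPM in zed1-D and 40.1 and 33.9 CPM in WT. JAZ2 had 66.4 and 60.6 CPM against 73.6 and 74.2 CPM and was not called in any of the 3.

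At 48 h, 2 members differed between the genotypes. JAZ1 was still higher in zed1-D, with 42.7 and 35.5 CPM against 28.9 and 21.4 CPM (0.64 ± 0.19, adjusted p = 0.0481). JAZ9 was lower, with 90.6 and 87.9 CPM against 127.3 and 114.0 CPM (-0.43 ± 0.11, adjusted p = 0.0241). That made 1 higher and 1 lower of 10, where 14.6% of all genes were called, and the median log2 difference of the members was -0.13, beside -0.03 for all genes. Without JAZ7 and JAZ8 the median of the members was 0.03. The JAZ1 call remained only without WT 48 h replicate 1 and the JAZ9 call only without WT 48 h replicate 2, among the 4 ways of leaving out a library (adjusted p up to 0.313 and 0.238). With the block JAZ1 and JAZ6 were called higher and JAZ2 and JAZ9 lower, where 45.6% of all genes were called. JAZ10 had 9.29 and 8.76 CPM in zed1-D and 8.98 and 7.47 CPM in WT at this hour.

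The next comparison asks how each genotype changed after the move. In WT at 3 h, JAZ9 rose from 38.4 and 39.1 CPM to 149.8 and 145.6 CPM (log2 change 1.93 ± 0.12, adjusted p = 3.4e-05). JAZ5 rose from 4.66 and 3.61 CPM to 16.1 and 11.7 CPM (1.75 ± 0.24, edgeR adjusted p = 0.00402, and adjusted p = 0.0715 without WT 0 h replicate 2). JAZ2 rose from 41.0 and 40.4 CPM to 73.6 and 74.2 CPM (0.86 ± 0.12, adjusted p = 0.00371). These 3 of 10 were the members called, all higher, where 1.78% of all genes were called. With the block JAZ1 and JAZ6 joined them, where 20.3% of all genes were called. JAZ10 had 7.57 and 4.47 CPM at 3 h and 7.64 and 4.46 CPM at 0 h.

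In WT at 12 h JAZ9 alone was called (1 of 10, where 1.51% of all genes were called). It had 62.9 and 60.1 CPM (0.66 ± 0.11, adjusted p = 0.0166), and the call was lost whichever of the 4 libraries was left out (adjusted p up to 0.163). With the block JAZ2, JAZ5, JAZ6 and JAZ9 were higher and JAZ3 was lower than at 0 h, where 21.3% of all genes were called. At 48 h WT had JAZ9 at 127.3 and 114.0 CPM (1.64 ± 0.12, adjusted p = 4.1e-05) and JAZ5 at 9.18 and 11.3 CPM (1.34 ± 0.24, adjusted p = 0.0147). They were 2 of 10, where 2.97% of all genes were called, and 5 of 10 with the block, where 29.4% were. The JAZ5 call was lost without WT 0 h replicate 1, WT 0 h replicate 2 or WT 48 h replicate 2 (adjusted p up to 0.156). JAZ6 had 78.0 and 88.6 CPM at 48 h and 39.3 and 54.3 CPM at 0 h (adjusted p = 0.0813 in edgeR, 0.0213 in DESeq2, 1.11e-08 with the block).

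In zed1-D at 3 h, JAZ9 rose from 49.5 and 50.0 CPM to 111.0 and 105.4 CPM (1.12 ± 0.11, adjusted p = 0.000914). It was the 1 member of 10 called, where 2.72% of all genes were called. The block added JAZ1, JAZ2 and JAZ5 as higher and JAZ3 as lower, where 23.9% of all genes were called. At 12 h, 8 of 10 members were above 0 h, where 14.8% of all genes were called, and they are the same 8 that differed from WT. Both comparisons use the same zed1-D 12 h libraries, so they are not independent. JAZ7 and JAZ8 passed the filter only through those libraries. JAZ1 went from 44.3 and 36.0 CPM to 158.3 and 149.6 CPM (1.95 ± 0.19, adjusted p = 6.5e-05). JAZ10 went from 11.9 and 7.31 CPM to 43.8 and 34.7 CPM (2.06 ± 0.33, adjusted p = 0.00162). The JAZ7 call was lost without zed1-D 0 h replicate 2 (adjusted p = 0.0814), and the JAZ8 call without either 0 h library (up to 0.141), while without zed1-D 12 h replicate 2 JAZ8 did not pass the filter. The median log2 change of the 10 members was 1.94, beside 0.03 for all genes. Without JAZ7 and JAZ8, 6 of 8 were higher (7 with the block), with a median of 1.635. With the block JAZ12 was added, where 43.9% of all genes were called, and JAZ3 stayed uncalled with 40.1 and 30.7 CPM at 0 h and 38.9 and 33.5 CPM at 12 h. At 48 h JAZ9 alone stood above its 0 h level, at 90.6 and 87.9 CPM (0.84 ± 0.11, adjusted p = 0.00048). That is 1 of 10, where 20.0% of all genes were called. With the block 4 members were higher and JAZ3 was lower, where 52.7% of all genes were called.

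**Figure D4:**
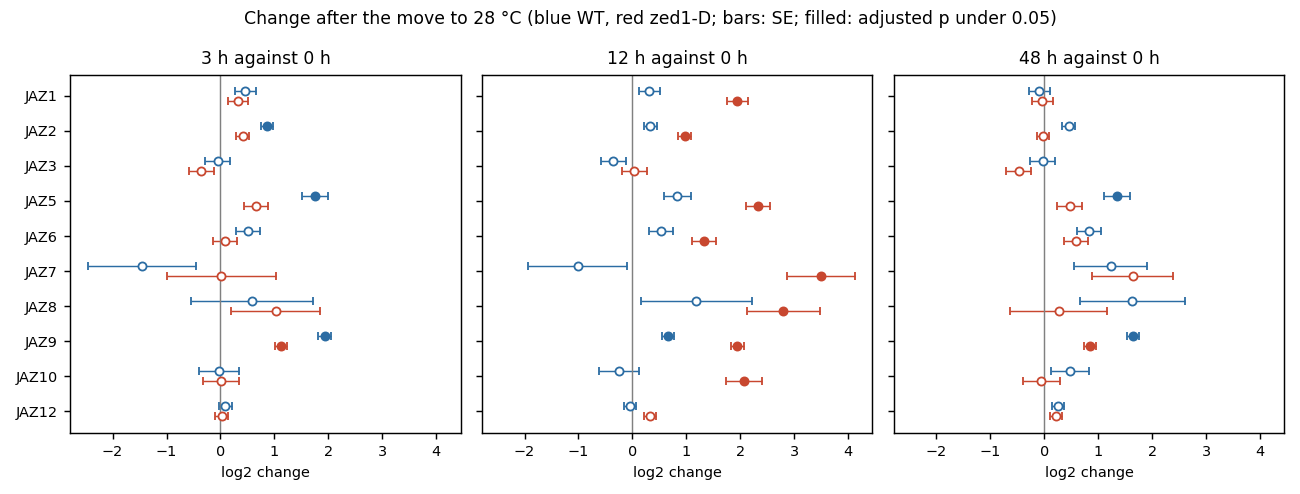
Log2 change from 0 h (x axis) at 3, 12 and 48 h for each member in WT (blue) and zed1-D (red). Points are edgeR estimates, bars their SE, and filled points have an adjusted p under 0.05. At 12 h 8 red and 1 blue points are filled, and JAZ9 is filled in both genotypes at every hour.

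The steps between neighbouring hours were compared after the group means had been seen. From 3 to 12 h in WT, JAZ9 fell from 149.8 and 145.6 CPM to 62.9 and 60.1 CPM (-1.26 ± 0.11, adjusted p = 0.000415). It was the 1 member of 10 called, where 1.32% of all genes were called, and with the block JAZ2 and JAZ5 were also lower, where 12.2% were. Over the same hours in zed1-D, JAZ9 went the other way, from 111.0 and 105.4 CPM to 197.9 and 184.7 CPM (0.82 ± 0.11, adjusted p = 0.00167). In all, 7 of 10 members rose over that step in zed1-D (JAZ1, JAZ2, JAZ5, JAZ6, JAZ7, JAZ9 and JAZ10), where 6.60% of all genes were called. With the block all 10 rose, where 32.3% were called. The JAZ2 call was lost without any of the 4 libraries (adjusted p up to 0.159), and the count fell to 4 without zed1-D 3 h replicate 2, when JAZ7 (0.134) and JAZ10 (0.069) were lost too. The JAZ6 call was lost without zed1-D 3 h replicate 1 or zed1-D 12 h replicate 2 (up to 0.098). Without JAZ7 and JAZ8, 6 of 8 rose over this step (8 with the block), with a median of 1.03.

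From 12 to 48 h in WT, JAZ9 rose again (0.97 ± 0.11, adjusted p = 0.00208) and was the 1 member of 10 called, where 1.37% of all genes were called. With the block 7 members were higher and JAZ1 was lower, where 19.8% were called. In zed1-D, 7 of 10 members fell over this step (JAZ1, JAZ2, JAZ5, JAZ7, JAZ8, JAZ9 and JAZ10) and 0 rose, where 10.4% of all genes were called. JAZ10 fell from 43.8 and 34.7 CPM to 9.29 and 8.76 CPM (-2.12 ± 0.33, adjusted p = 0.00293), and JAZ1 from 158.3 and 149.6 CPM to 42.7 and 35.5 CPM (-1.98 ± 0.19, adjusted p = 0.000168). JAZ6 kept more of its level, with 88.6 and 103.8 CPM at 48 h (adjusted p = 0.059 in edgeR, 0.0329 in DESeq2, 3.26e-09 with the block). DESeq2 called JAZ6 over this step but not JAZ7 (DESeq2 adjusted p = 0.167) or JAZ8 (0.111). With the block 9 fell, JAZ12 being the exception, where 44.3% of all genes were called. The JAZ7 call was lost without any of the 4 libraries (adjusted p up to 0.354). The JAZ8 call was lost without zed1-D 12 h replicate 1 or either 48 h library (adjusted p up to 0.167), and without zed1-D 12 h replicate 2 JAZ8 did not pass the filter. Without JAZ7 and JAZ8, 5 of 8 fell (7 with the block), with a median of -1.05.

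Whether the genotype difference itself changed from 0 h was tested as an interaction. At 12 h, 4 of 10 members had a larger genotype difference than at 0 h, where 3.25% of all genes were called. They were JAZ1 (log2 difference of differences 1.64 ± 0.27, adjusted p = 0.00734), JAZ5 (1.499 ± 0.333, 0.0343), JAZ9 (1.28 ± 0.16, 0.00175) and JAZ10 (2.31 ± 0.49, 0.0284). JAZ1 and JAZ9 kept their calls whichever of the 8 libraries was left out. JAZ5 lost its call each time (adjusted p up to 0.157), and JAZ10 lost its call except without WT 0 h replicate 2 or zed1-D 0 h replicate 1 (up to 0.143). With the block 8 members passed, where 20.1% of all genes did.

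JAZ9 also had an interaction in the other direction. Its genotype difference was lower at 3 h than at 0 h (-0.81 ± 0.16, adjusted p = 0.0395), where 1.06% of all genes were called, and lower at 48 h (-0.79 ± 0.16, adjusted p = 0.0192), where 3.69% were. It was the 1 member of 10 called at each of these hours. The 3 h call was lost whichever of the 8 libraries was left out (adjusted p up to 0.185), and the 48 h call was lost except without WT 48 h replicate 2 (up to 0.0968). With the block JAZ2, JAZ5 and JAZ9 were lower at 3 h, where 5.66% of all genes were called, and JAZ2, JAZ3, JAZ5 and JAZ9 at 48 h, where 27.2% were. These tests share the 0 h libraries with each other.

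The members also resembled each other to different degrees over the 8 group means of log2 CPM. The points share libraries and depth, so the correlations are given as descriptions. JAZ1 and JAZ10 were the most alike pair (Pearson r = 0.919), and JAZ10 was also the nearest member to JAZ8 (0.915) and JAZ7 (0.852). JAZ7 and JAZ8 passed the filter only through the zed1-D 12 h libraries and had few reads elsewhere. Their r values can therefore rest largely on that group. JAZ5 and JAZ6 were nearest to each other (0.899), as were JAZ2 and JAZ9 (0.898). JAZ2 and JAZ9 were called higher in WT at 3 h, whereas JAZ10 had nearly the same CPM in WT at 0, 3 and 12 h. JAZ3 resembled the others least, with r = 0.389 to the mean family profile and at most 0.566 to another member. Within groups, JAZ3 and JAZ10 were higher in replicate 1 in 8 of 8 groups and JAZ6 in 0 of 8, so these genes carry a steady difference between the replicate numbers.

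The genes outside the family with the most similar profile over the 8 group means were found among 15559 candidates. The family profile they were set against includes JAZ7 and JAZ8. The nearest was AT5G13760 (r = 0.977), at 31.1 CPM in zed1-D and 21.7 CPM in WT at 12 h. ILL6, an amidohydrolase that cleaves jasmonoyl-isoleucine, followed (0.972), with 38.7 and 9.76 CPM. NSP1, a nitrile-specifier protein of glucosinolate breakdown, had r = 0.968, with 251 and 75.5 CPM. LOX4, a lipoxygenase of jasmonate synthesis, had r = 0.945, with 69.1 and 10.1 CPM. The other 6 were AT3G51450, PGL5 (a 6-phosphogluconolactonase), SAM-2 (an S-adenosylmethionine synthetase), PMEPCRA (a pectin methylesterase), PAD1 (a proteasome subunit) and AT3G02360.

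Family members outside the 10 genes were read in the same way. JAZ11 lay between 10.7 and 19.6 CPM in all libraries, with 12.7 to 14.5 CPM in zed1-D and 11.0 to 11.1 CPM in WT at 12 h (adjusted p = 0.494). JAZ4 never exceeded 8 reads in a library. The other ZIM-domain genes tested were PPD1, PPD2 and TIFY8, and TIFY8 had 36.1 and 47.6 CPM in zed1-D and 56.2 and 74.6 CPM in WT at 12 h (adjusted p = 0.274, blocked 1.24e-06, lower). Of the 5 tested, 0 were called at 12 h, and their median log2 difference was -0.10.

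Genes that act with JAZ proteins were read from lists of the pathway, by count and median beside the all-gene values given above for 12 and 48 h. In the receptor and corepressor complex (COI1, ASK1, ASK2, CUL1, RBX1, NINJA and TPL), 0 of 7 were called at 12 h, with a median of 0.07, and 2 were higher with the block. At 48 h NINJA, the adaptor to TOPLESS, was lower in zed1-D at 45.0 ± 1.23 CPM against 64.4 ± 6.62 CPM (SD, n = 2, edgeR adjusted p = 0.0357). Among 9 tested genes of a list of transcription factors bound by JAZ proteins, which also holds the Mediator subunit MED25, 2 were higher at 12 h, and with the block 5 were higher and 2 lower. MYC2, the main activator, had 173 ± 16.8 CPM in zed1-D and 88.7 ± 13.2 CPM in WT (log2 difference 0.96 ± 0.21, SE, adjusted p = 0.0133). MYB21, a stamen factor, had 2.26 ± 0.08 and 0.62 ± 0.04 CPM (adjusted p = 0.0134). These MYB21 levels are low. At 0 h its means stood the other way, at 0.50 ± 0.41 CPM in zed1-D and 1.51 ± 0.55 CPM in WT (edgeR adjusted p = 0.98).

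In jasmonate synthesis, 7 of 13 tested genes were higher at 12 h and 0 were lower (median 0.80). AOC3, an allene oxide cyclase, had 110 ± 1.48 CPM in zed1-D and 10.6 ± 0.22 CPM in WT (3.38 ± 0.19, adjusted p = 3.89e-06). LOX4 had 69.1 ± 17.0 and 10.1 ± 1.60 CPM (adjusted p = 0.00018), and OPCL1, a ligase of the beta-oxidation step, 145 ± 32.1 and 51.8 ± 7.18 CPM (adjusted p = 0.00152). At 48 h 1 gene of this list was higher and 3 were lower, and with the block 3 and 6. AOC3 was the higher one, at 49.9 ± 1.02 against 13.4 ± 1.40 CPM, while its paralogue AOC4 was lower, at 79.8 ± 2.16 against 126 ± 15.5 CPM (adjusted p = 0.0379).

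Genes that oxidize, cleave or sulfate jasmonates were higher in zed1-D at 12 h for 7 of 7 tested (median 3.13). ST2A, a sulfotransferase of hydroxyjasmonate, had 40.1 ± 4.22 CPM against 0.83 ± 0.26 CPM (adjusted p = 5.14e-06). JRG21 (AT3G55970, a jasmonate-regulated gene) had 37.6 ± 7.80 against 2.20 ± 0.24 CPM (adjusted p = 5.14e-06), and AT5G05600 of the same list 66.0 ± 13.3 against 7.46 ± 0.79 CPM. At 48 h 5 of 7 were still higher (median 1.03), among them CYP94C1, an oxidase of jasmonoyl-isoleucine, at 6.33 ± 0.70 against 1.92 ± 0.17 CPM (adjusted p = 0.00715).

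Output genes were counted by branch. Of 6 genes downstream of MYC factors, 3 were higher at 12 h (median 1.07), and at 48 h 1 was higher and 4 were lower (median -1.23). With the block all 6 were higher at 12 h. TAT3, a tyrosine aminotransferase, had 1300 ± 253 against 56.5 ± 8.18 CPM at 12 h and 409 ± 55.0 against 77.5 ± 17.5 CPM at 48 h (adjusted p = 6.62e-06 and 0.000127). CORI3, a cystine lyase induced by coronatine, had 611 ± 70.6 against 302 ± 12.9 CPM at 12 h and 153 ± 1.73 against 415 ± 44.5 CPM at 48 h (adjusted p = 0.000546 and 4.57e-05). Of 8 genes of the branch that jasmonate and ethylene drive through ERF factors, 7 were higher at 12 h (median 3.56). At 48 h 7 were higher and 1 was lower (median 5.05). In WT the 8 genes summed to only 16.6 to 22.8 CPM at 12 h. PDF1.2B and PDF1.3 had no reads in WT at 12 h, and PDF1.2B had none at 48 h. Both medians thus include differences from a WT group without reads. Which of the 8 pass the filter only through zed1-D was not examined. PDF1.2A, a plant defensin, had 21.9 ± 1.63 against 0.108 ± 0.15 CPM at 12 h and 122 ± 0.94 against 3.63 ± 0.62 CPM at 48 h (adjusted p = 7.64e-06 and 2.98e-06). PR4, a chitin-binding protein, had 44.3 ± 3.22 against 8.67 ± 2.36 CPM and then 184 ± 2.44 against 5.50 ± 0.15 CPM (adjusted p = 2.39e-05 and 4.67e-07). From 12 to 48 h in zed1-D, 4 of the 8 ERF-branch genes rose and 1 fell (6 and 1 with the block), with a median log2 change of 2.06. Over the same step 0 of the 6 MYC-branch genes rose and 5 fell (0 and 6 with the block), with a median of -1.65, beside -0.06 for all genes. Of all tested genes, 10.4% were called in this step (711 higher and 1295 lower), and 44.3% with the block. The change of one list against the other was not tested.

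**Figure D5:**
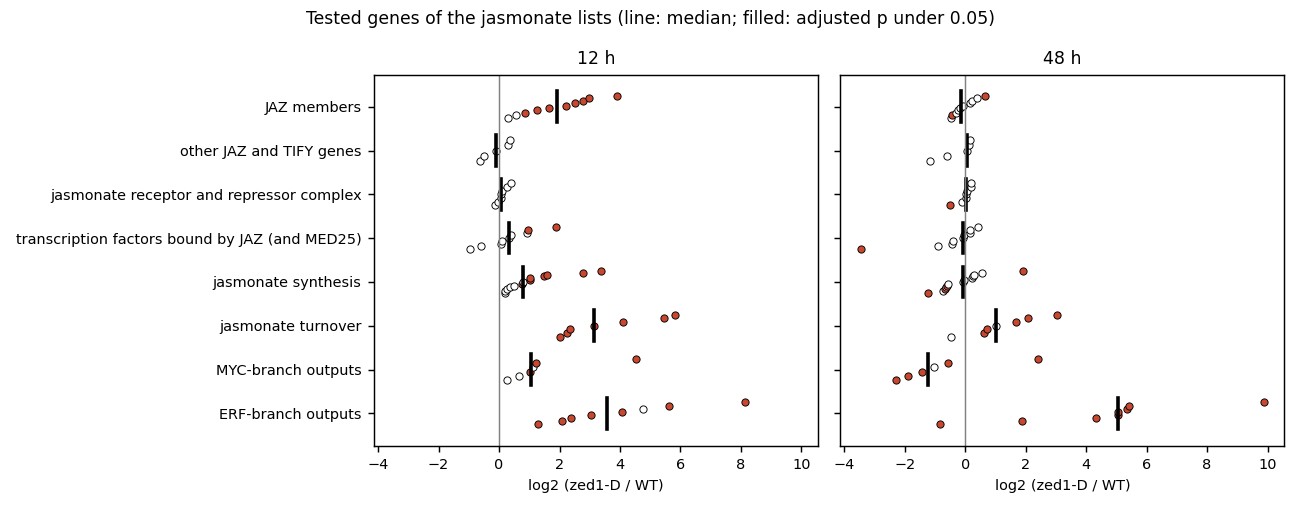
Log2 difference between zed1-D and WT (x axis) at 12 h and 48 h for the tested genes of 8 jasmonate lists. Each point is a gene, filled where its adjusted p is under 0.05, and the line is the list's median. The JAZ median is 1.93 at 12 h and -0.13 at 48 h, and that of the ERF-branch genes is 3.56 and 5.05. Without JAZ7 and JAZ8, which passed the filter only through zed1-D at 12 h, the JAZ median is 1.44 and 0.03. The ERF-branch medians include genes without reads in WT.

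Some markers of the tissues in the sample also differed at 12 h, where 9.69% of all tested genes were called and 35.1% with the block. In these bulk samples, fewer cells of a type and less RNA per cell cannot be told apart. Of 10 tested tapetum and pollen markers, VGD1 and VGDH1, pollen pectin methylesterases, were higher in zed1-D, VGD1 at 15.8 ± 0.53 against 3.05 ± 0.26 CPM (adjusted p = 5.04e-05), and with the block 2 were higher and 2 lower. The 17 markers summed to 72.8 to 74 CPM in zed1-D and 56.7 to 62.3 CPM in WT, and DYT1 and RBOHJ were at 0 in zed1-D and ANX2 and RBOHH in WT. Of 13 leaf photosynthesis genes, RBCS2B and GLK2 were lower, and with the block all 13 were. They summed to 42700 to 51400 CPM against 54600 to 65700 CPM, none at 0. Of 10 meristem and floral identity genes SEP1 and SEP2 were higher (with the block 5 higher and 1 lower), and the list summed to 95.3 to 111 CPM against 82.9 to 85.3 CPM, none at 0. The clock genes (0 of 10 called, 391 to 445 CPM against 427 to 483 CPM) and reference genes (0 of 6, 1470 to 2170 CPM against 1270 to 1730 CPM) had no member called at 12 h. With the block 4 clock genes were lower and 2 reference genes higher, near the share of all genes. At 48 h CCA1 and LHY, clock genes of the morning, were higher in zed1-D, LHY at 37.7 ± 3.46 against 9.35 ± 1.45 CPM (edgeR adjusted p = 0.000913). At that hour 4 of 10 tapetum and pollen markers were lower, where 14.6% of all genes were called. The part of these shifts in the JAZ values was not tested.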

How the data were processed

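RNA from 16 Arabidopsis libraries was sequenced, and each title gave the group and the replicate number. Per the file headers, each deposited file holds a count of uniquely mapped reads for every gene, beside an RPKM value that the authors made from it. The submitters' processing notes name TAIR10. No aligner, counting tool or strand setting is given in the sources used here. Genes without a line in a library were set to 0. Protein sequences were not used here.

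Counts were fitted with edgeR 4.0.16 (limma 3.58.1, R 4.3.3; TMM, default expression filter, 8 group means, two-sided quasi-likelihood tests) over 19312 genes, with 13 comparisons and 4 steps added after seeing group means. Alternatives were DESeq2 1.42.0, RLE scaling, no filter, a replicate block, thinning to the smallest library and leaving out each library. Same-numbered libraries deviated together in all 28 pairs of groups (correlations 0.53 to 0.71, median 0.65), so the number was used as a block in a second model. The common coefficient of variation was 22.6% without the block and 5.7% with it. Replicate number goes with sequencing depth, so pairing of samples cannot be told apart from an effect of depth or batch. The labels do not say whether replicates are separate plants, so p-values may measure technical spread. The members and lists were chosen with earlier results of these data known. Named list genes have the smallest p per list (3 at 12 h, 2 at other hours). Some gene names come from RefSeq synonyms. Motifs were searched with Python 3.11.15 in the 300 bases before each RefSeq start. The models were tested on simulated data, where a first mark for the share of changed genes recovered was missed and then lowered. Intervals of read ratios cover counting error only.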

Additional observations from a re-analysis of the deposited data

Results flagged for a closer look

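In 4 genes the genotype difference at a later hour differed from that at 0 h by a test of the interaction itself (edgeR, adjusted over all genes). At 12 h zed1-D exceeded WT by more than at 0 h for JAZ1 (log2 difference of differences 1.636 ± 0.272, SE, adjusted p = 0.00734), JAZ5 (1.499 ± 0.333, 0.0343), JAZ9 (1.279 ± 0.16, 0.00175) and JAZ10 (2.31 ± 0.494, 0.0284). For JAZ9 the difference between genotypes was also lower at 3 h (-0.808 ± 0.16, 0.0395) and at 48 h (-0.794 ± 0.16, 0.0192) than at 0 h. JAZ9 had higher CPM in WT at 3 and 48 h and in zed1-D at 12 h. With the replicate block JAZ2 and JAZ5 were also called lower at 3 and 48 h and higher at 12 h in these interactions. How these calls depend on single libraries is given with the interactions above.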

How the results depend on the processing

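No called member changed direction under any alternative run. The number of members called moved most with the replicate block. It rose to 4 at 0 h, 3 at 3 h and 4 at 48 h between genotypes, to 5 in WT at 3, 12 and 48 h and in zed1-D at 3 and 48 h, to 3, 8 and 4 for the interactions at 3, 12 and 48 h, and to 3 and 8 for the WT steps. DESeq2 called 1 member at 0 h, 1 at 3 h and 1 at 48 h between genotypes. It called 3 in WT at 48 h, 2 in the WT step from 3 to 12 h and 6 in the zed1-D step from 12 to 48 h. RLE scaling left 1 at 48 h. Without the filter 1 remained at 48 h, and 0 in WT at 12 h and for the interactions at 3 and 48 h. Thinning left 0 at 48 h, 0 for the 3 h interaction and 2 for the 12 h interaction. Leaving out a library, where the lone library is assumed to vary like the other groups, gave 0 to 1 at 48 h, 0 in WT at 12 h, 1 to 2 in WT at 48 h, 0, 2 to 3 and 0 to 1 for the 3 interactions, and 4 to 6 for the zed1-D step from 3 to 12 h. The causes were not tested beyond the fewer libraries and reads these settings use. The count of members called at 12 h was 6 to 10 between genotypes and 6 to 9 in zed1-D against 0 h across settings. Between genotypes JAZ8 was not called by DESeq2 or in any fit that left out a 12 h library. JAZ7 and JAZ8 are limited by read depth.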

Other observations

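AT3G22275, which was listed with the JAZ relatives and had too few reads to be tested, had 5 and 18 reads in zed1-D at 12 h and 0 to 7 reads in every other library. Scaled for depth, that is 0.916 and 1.55 CPM, against 0 to 0.619 CPM in the others. The gene overlaps the protein-coding gene AT3G22270 on the other strand. As the strand setting is not known, reads of that partner cannot be told from its own.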
